A study of Mus musculus with 9 samples.

Results

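This comparison sets 1 mouse pancreatic cancer clone edited in Zdhhc20 against 1 unedited clone of the same line. It uses 6 of the 9 RNA-seq libraries, 3 from the knockout clone (named E4) and 3 from the control clone (named C5), and covers the 12749 of 23958 counted genes that passed an expression filter. The line, PDA530 Met, was derived from pancreatic ductal adenocarcinoma that had spread to the liver in a male KPC mouse, on a strain labelled as a mix of 129/SvJae and C57Bl/6. KPC mice are a genetic model of pancreatic cancer. The knockout clone was made with CRISPR/Cas9. The control clone also went through nucleofection with those guide RNAs, was not edited and still expresses Zdhhc20. The other 3 libraries come from the uncloned parental line (written PDA50 Met in the design text), and their levels are given only for orientation, with no test. All cells were untreated and harvested in ordinary serum-containing medium. Each group is 1 clone, so its libraries are replicates of that clone and p-values measure the spread between samples of a clone. A difference that follows from the edit and one that follows from the choice of clone cannot be told apart here.

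ZDHHC20 is a palmitoyltransferase, an enzyme of intracellular membranes that attaches the fatty acid palmitate to cysteines of other proteins. Palmitate anchors proteins such as tetraspanins, G protein alpha subunits and some receptors in membranes, and thioesterases take it off again. The epidermal growth factor receptor is a known ZDHHC20 substrate. Pancreatic ductal tumour cells keep features of duct epithelium, such as simple keratins, E-cadherin and mucins, to varying degrees.

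The 6 libraries held 17237512 to 23192701 counts each. Levels are given in CPM, counts per 1000000 counts of a library with TMM scaling between libraries, and differences as log2 fold changes of the knockout over the control clone; a signed or decimal number in brackets after a gene or its CPM is its log2 fold change. A gene is called, and said to rise or fall in the knockout clone, at an adjusted p under 0.05. Across genes, log2 CPM correlated at 0.990 to 0.991 within the knockout clone, 0.962 to 0.982 within the control clone and 0.911 to 0.938 between clones. The control libraries spread more, with a median SD of log2 CPM of 0.223 against 0.0885 in the knockout clone, and control replicates 2 and 3 stood apart from each other. The mitochondrial share of counts was 3.45 to 4.11% in the control clone, 1.58 to 2.20% in the knockout clone and 1.20 to 1.62% in the parental line. Of the 7 markers used for ductal carcinoma cells, Krt8 was at 1322, 2751 and 2523 CPM on average in the knockout, control and parental groups, Krt18 at 1698, 2162 and 1931, Cdh1 (E-cadherin) at 768, 1278 and 1201, Krt7 at 421, 841 and 394 and Krt19 at 172, 1489.9 and 1140.1. Sox9 was at 10.7, 13.8 and 9.82 CPM, and Epcam, a common epithelial marker, was under 1 CPM on average in each group. Most defining markers of other cell types did not pass the filter: of 16 leukocyte markers 2 passed, of 11 endothelial 1, of 15 fibroblast 2, of 18 acinar and endocrine 1, and of 11 hepatocyte 0. The leukocyte list summed to 18.2 to 20.1 CPM in the knockout, 25.02 to 42.1 in the control and 47.5 to 55.1 in the parental libraries, nearly all of it Cd14. The pan-leukocyte marker Ptprc averaged 0.0909 and 0.0175 CPM in the knockout and control clones, and Cd3e, Adgre1 and Tyrobp were at 0. The other marker lists summed to at most 10.01 CPM in any library. Of the 6 markers that passed, 5 were called, all lower (Cd14, Cd68, Egfl7, Des and Cela1), and their part in the results was not tested. The Cd14 and Cd68 calls were lost without control replicate 1 and without any 1 of the knockout replicates. That of Cd68 was also lost with total counts, no filter, the DESeq2 Wald test, limma voom and the replicate number as a block.

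The targeted gene was lower in the knockout clone but still transcribed. Zdhhc20 (ENSMUSG00000021969, chromosome 14 from 57832703 to 57890276 in GRCm38) was at 37.4, 33.9 and 42.5 CPM in knockout libraries and 123, 85.7 and 120.1 CPM in control libraries. The groups did not overlap, with a log2 fold change of -1.51 (SE 0.16, adjusted p 0.00092) by edgeR's quasi-likelihood test with Benjamini-Hochberg adjustment, as are all adjusted p values below. Gene-level counts do not show where in the transcript the reads fall, so they cannot show the edit. Of 30 tested enzymes and accessory subunits of the palmitoylation cycle, 4 rose and 8 fell, or 13.3% and 26.7% against 15.6% and 18.5% of all 12749 tested genes. Zdhhc23, another palmitoyltransferase, rose from 0.0838 ± 0.0229 to 2.7 ± 0.59 CPM (SD, n = 3; 4.91). Zdhhc15 fell from 10.7 ± 2.34 to 1.4 ± 0.506 CPM (-2.90), and the thioesterase-like Lyplal1 fell (-1.16). The accessory subunits Golga7 and Selenok had log2 fold changes of -0.11 and -0.10, and neither was called. Fewer cycle members were called without control replicate 1 (2 higher, 5 lower), knockout replicate 1 (1 and 3), knockout replicate 2 (1 and 3) or knockout replicate 3 (2 and 5).

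Comparing both clones across all genes asks how the edited clone's transcriptome differs from that of an unedited one. Of 12749 tested genes, 4348 (34.1%) were called, of which 1986 (15.6% of those tested) rose and 2362 (18.5%) fell in the knockout clone. These shares, 15.6% higher and 18.5% lower, are the background for the shares of each gene list given below. The median log2 fold change over all tested genes was 0.01. Large differences leaned downward: 1580 called genes (12.4%) changed by at least 1 on the log2 scale, 449 (3.52%) higher and 1131 (8.87%) lower. The 3 knockout libraries did not overlap the 3 control libraries in 6606 genes (51.8%). Of the called genes, 2102 were called in the same direction in every alternative fit that tested them, and all 4348 kept their sign in those fits; genes under a filter were not tested in each fit. Leaving out knockout replicate 1, 2 or 3 lowered the number called to 2326, 2690 or 2435, while leaving out control replicate 2 raised it to 6222.

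**Figure D1:**
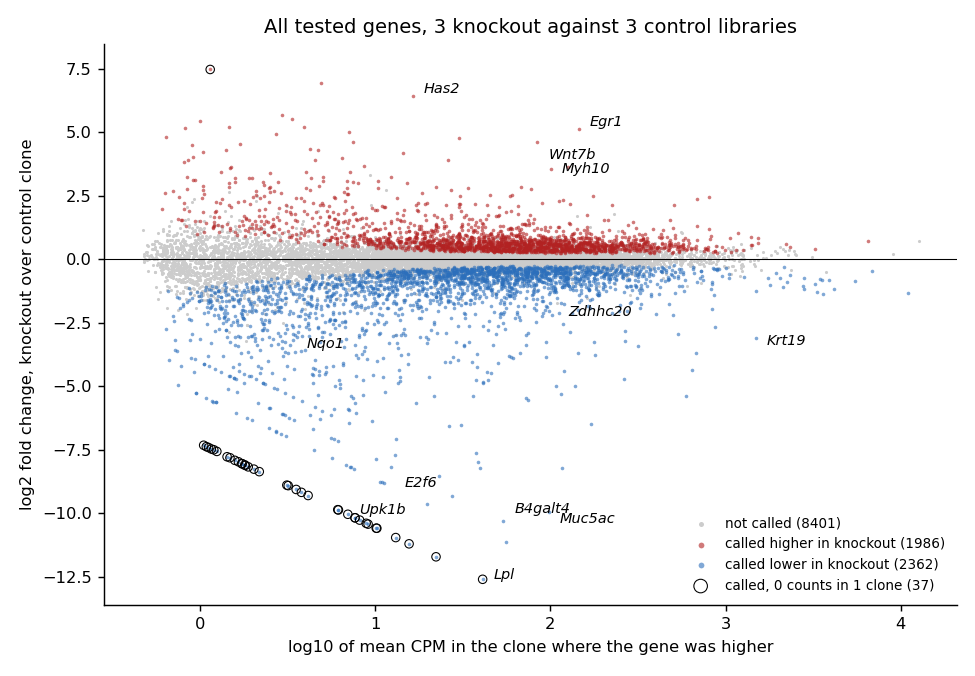
Each point is 1 tested gene, with the log10 of its mean CPM in the clone where it was higher on the x axis and the log2 fold change of the knockout over the control clone on the y axis. Red points (1986) were called higher and blue points (2362) lower; open circles mark called genes with 0 counts in 1 clone, whose fitted values are no measure of size, and the points far from 0 lie mostly below it.

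Among called genes whose mean reached 5 CPM in the higher clone and whose libraries did not overlap, the 12 with the largest rise ranged from Has2 to the myosin gene Myh10. Has2, which makes hyaluronan, was at 19.7, 12.8 and 16.7 CPM in knockout libraries and 0.131, 0.357 and 0.105 CPM in control libraries, with a log2 fold change of 6.42 (SE 0.37, adjusted p 0.00012). Wnt7b, a secreted WNT ligand, was at 84.4, 84.1 and 84.5 CPM in knockout libraries and 1.61, 6.95 and 2.31 CPM in control libraries (log2 fold change 4.60, SE 0.47, adjusted p 0.000737). Myh10, the heavy chain of nonmuscle myosin IIB, was at 102, 100.2 and 99 CPM in knockout libraries and 7.81, 11 and 7.34 CPM in control libraries (log2 fold change 3.55, SE 0.16, adjusted p 5.42e-05). That their libraries do not overlap is part of how they were chosen. Exons of Has2os overlap those of Has2, and AU022754 overlaps Wnt7b, so how reads were shared out within either pair is not known. Among the others of the 12 highest, Cdh6 (K-cadherin) had a log2 fold change of 4.79, the aminopeptidase Anpep 4.63, the TGF-beta co-receptor Cd109 4.19, the matrix metalloproteinase Mmp10 3.99 and the WNT modulator Dkk2 3.91. Also in this group were Egr1 (5.11, described below), Crisp1 (5.00), the ADP receptor P2ry12 (3.67) and Ccbe1, a factor of lymphatic growth (3.65). Ccbe1 was at 4.70 without control replicate 2 and 3.23 without control replicate 1, called in both fits. For Cdh6 and Egr1 the control clone was the one away from the parental line: parental Cdh6 was at 38.9 ± 4.68 CPM against 30.3 ± 3.51 in the knockout and 1.11 ± 0.439 in the control clone (SD, n = 3). For all others of the 12 the parental mean in CPM lay nearer that of the control clone, as for Wnt7b (5.13 CPM) and Dkk2 (1.95 CPM).

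Among the 12 lowest genes, 10 held 0 counts in all 3 knockout libraries, so their folds are lower bounds against a floor of 3 counts over the group, which covers counting error only. Lpl, the lipoprotein lipase that frees fatty acids for uptake, was at 35.4, 24.8 and 63.1 CPM in control libraries, and its knockout level was at least 766-fold lower (adjusted p 0.000833). Gnao1, a palmitoylated G protein alpha subunit, was at 10.4, 11.7 and 24.8 CPM in control libraries, and the knockout level lay at least 286-fold lower (adjusted p 0.00116). Bmp2, a secreted bone morphogenetic protein, was at 7.41, 7.55 and 8.07 CPM and at least 142-fold lower (adjusted p 0.000221). These losses were complete to the depth of the libraries, while the parental means were 14.8, 13.9 and 6.55 CPM. The bounds were at least 251-fold lower for the sulfotransferase Sult1c2, 185-fold for Stk39, the SPAK kinase of ion transport, 193-fold for the monoacylglycerol lipase Mgll, 168-fold for the channel Panx1 and 167-fold for Tmem150c. The ratio of control to knockout was 3056 (95% interval 548 to 120753) for the endocytic adaptor Dab2, which held 1 count in the knockout clone. It was 1504 (95% interval 416 to 12421) for B4galt4, a galactosyltransferase with 2 counts there. Cdca7l, a Myc-interacting factor, was at least 151-fold lower. Rpl10-ps1, a processed pseudogene of a ribosomal protein gene, was also in this group; reads can be divided between it and its parent gene, so its value is uncertain. Gnao1, Mgll, Dab2, Tmem150c and Cdca7l overlap exons of other annotated genes, with reads that the counting may split.

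Immediate early genes, which growth factors and stress switch on within minutes without new protein synthesis, rose in large part. Of 39 tested, 21 rose (53.8%) and 3 fell (7.69%), with a median log2 fold change of 0.87 against 0.01 over all genes. Among the 23 transcription factors of the list 15 rose, and among the 16 other members 6 rose. The zinc finger factor Egr1 was at 162, 126 and 148 CPM in knockout libraries and 3.49, 3.86 and 5.45 CPM in control libraries (log2 fold change 5.11, SE 0.20, adjusted p 3.67e-05). Jun, a subunit of the AP-1 factor, was at 77.1, 86.7 and 67.9 CPM in knockout libraries and 11.4, 12.2 and 11.1 CPM in control libraries (log2 fold change 2.76, SE 0.12, adjusted p 5.19e-05). Its partner Fosb was at 48.7, 45.6 and 40.7 CPM in knockout libraries and 5.41, 11.4 and 6.97 CPM in control libraries (log2 fold change 2.54, SE 0.26, adjusted p 0.000733). No knockout library overlapped a control library for any of these. Ptgs2, the inducible cyclooxygenase that makes prostaglandins, rose from 136 ± 90.9 to 688 ± 39.9 CPM (SD, n = 3; 2.37). Dusp1, a phosphatase that switches off MAP kinases, rose from 24.1 ± 10.7 to 118 ± 11 CPM (2.32). Fos rose (1.73), Atf3 (1.5), Ier2 (1.53), Rgs2 (1.88) and the kinase Sgk1 (1.26). The rise did not cover the list: Junb (-0.23), Zfp36 (0.15), Btg2 (-0.15) and Myc (0.43) were not called, and Klf4 (-1.83), Klf10 (-0.75) and Gadd45g (-1.16) fell. Myc was called higher without control replicate 2 (0.71) and Junb lower without control replicate 3 (-0.29). Btg2 was at 0.52 without control replicate 3 and -0.55 without control replicate 2, not called in either fit. The Gadd45g call was lost without control replicate 1 and without each knockout replicate. Jun overlaps its antisense gene Junos, and Dusp1 overlaps Ergic1. The list held 20 to 29 calls with 1 library left out.

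The parental levels place the clones differently for different immediate early genes. Parental Egr1 was at 230.1, 232 and 269 CPM, above both clones, and Fos at 40.5, 34.2 and 39.2 CPM, above 18.4, 25.8 and 21 in the knockout and 5.63, 3.98 and 10.3 in the control libraries. For these genes the control clone was the low one. Parental levels of Jun were 32.8, 34.2 and 31.2 CPM and those of Ptgs2 222, 181 and 141 CPM, between the clones for Jun and below every knockout library for Ptgs2. These genes respond within minutes to handling, and whether harvest differed between groups was not tested.

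**Figure D2:**
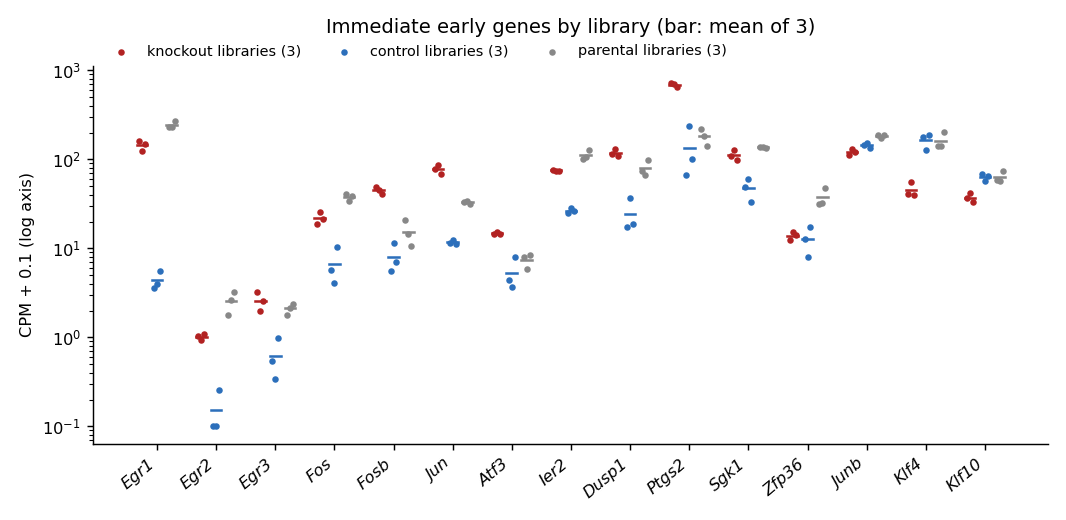
CPM plus 0.1 on a log axis for 15 immediate early genes; each point is 1 library of the knockout (red), control (blue) or parental (grey) group and bars are means of 3. Knockout points lie above control points for Egr1 to Sgk1, overlap them for Zfp36, lie close to them for Junb and lie below them for Klf4 and Klf10.

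Promoter sequence near these genes is shown because serum response factor and cAMP-responsive factors are the textbook activators of this class. The 250 bases before each RefSeq start (GRCm38.p6) were searched on both strands. Of the 39 tested members 30 had a promoter. Here and below, list shares count genes with a match in any of their promoters. Background shares count promoters, and a gene can have more than 1. The CArG box, the core of the serum response element, lay in 3 of the 30 (10% against 1.47% of all 32851 promoters and 1.11% of the 11941 promoters of tested genes), those of Egr2, Srf and Zfp36. The cAMP response element TGACGTCA also lay in 3 (10% against 1.55% of all and 2.64% of tested genes' promoters), those of Btg2, Dusp1 and Maff. Of these 6 genes Egr2, Srf and Dusp1 were called, all higher, Maff was called higher without control replicate 3 (0.37), and a match is a description of the sequence only. Windows around a match, in the direction of the gene, with matches in capitals, are as follows; the Srf window holds a pair of CArG boxes. The Egr2 window is on chromosome 10 from 67537772 to 67537831 (plus strand), the Srf window on chromosome 17 from 46556190 to 46556249 (minus strand) and the Dusp1 window on chromosome 17 from 26508583 to 26508640 (minus strand).
Egr2: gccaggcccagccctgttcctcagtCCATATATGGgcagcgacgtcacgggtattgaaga
Srf: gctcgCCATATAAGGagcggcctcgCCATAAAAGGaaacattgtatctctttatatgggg
Dusp1: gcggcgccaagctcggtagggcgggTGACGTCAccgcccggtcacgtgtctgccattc
Srf itself rose (log2 fold change 0.59, SE 0.13, adjusted p 0.0137), a call lost without control replicate 1 and without knockout replicate 2 or 3. Egr2 held 51 counts in the knockout and 3 in the control clone, a ratio of 18 (95% interval 5.82 to 90.1).

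Surface mucins and glycoproteins of duct epithelium fell. Of 15 tested, 11 fell (73.3%) and 2 rose (13.3%), with a median log2 fold change of -3.27. Muc5ac, a gel-forming mucin of pancreatic tumours, was at 0.0976, 0.0556 and 0.117 CPM in knockout libraries and 139, 111 and 43.4 CPM in control libraries (log2 fold change -9.97, SE 0.71, adjusted p 0.000202). Muc1, a membrane mucin, was at 92.6, 100.1 and 90.6 CPM in knockout libraries and 340.2, 277 and 369.8 CPM in control libraries (log2 fold change -1.78, SE 0.13, adjusted p 0.000202). Tff1, a trefoil peptide secreted with mucins, was at 43.4, 65.3 and 46 CPM in knockout libraries and 720.1, 484 and 836 CPM in control libraries (log2 fold change -3.70, SE 0.26, adjusted p 0.000193). In each the knockout libraries lay below all control libraries. Upk1b, a tetraspanin-type uroplakin, held 0 counts in the knockout clone and was at least 126-fold lower. Psca fell (-3.27), Muc4 (-3.60) and Msln (mesothelin) (-1.02), while Cd24a rose (0.62) and Epcam had a log2 fold change of 1.98 at under 1 CPM. Muc4 overlaps Muc20, and the Muc4 call was lost without knockout replicate 2. The control clone stood above the parental line for several: the parental means were 9.83 CPM for Muc5ac, 126 CPM for Muc1 and 134 CPM for Tff1. The GPI-anchored Ly6 surface proteins showed the same order, with all 4 tested members lower and Ly6a at 0.646 ± 0.577, 13.7 ± 0.968 and 2.46 ± 0.458 CPM in the knockout, control and parental groups (SD, n = 3). Members of this family are similar in sequence, so reads may be divided between them.

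Keratins and cell junction genes fell in part. Of 8 tested keratins of simple and ductal epithelium 6 fell (75%) and 1 rose (12.5%), and the median log2 fold change was -1.01. Krt19, the duct keratin, was at 155, 185 and 176 CPM in knockout libraries and 1656, 823 and 1991 CPM in control libraries (log2 fold change -3.10, SE 0.31, adjusted p 0.000735). Krt8 fell (-1.04), Krt7 (-0.98) and Krt20 (-1.99), and Krt23 rose (1.16). Of 39 junction genes 19 fell (48.7%, against 18.5% of all genes) and 7 rose (17.9%, near the 15.6% of all genes). The 8 desmosome genes held 6 that fell and 0 that rose: Dsp, the desmoplakin that links desmosomes to keratin, fell from 512 ± 159.8 to 201 ± 23.2 CPM (-1.33), and Dsc2 fell (-3.72). Cdh1 was at 766, 784 and 753 CPM in knockout libraries and 1443, 1066 and 1325 CPM in control libraries (log2 fold change -0.71, SE 0.12, adjusted p 0.00478), a smaller drop without overlap. Tight junction genes went both ways, with Ocln (occludin) at -3.39 and Tjp3 at -3.23 lower, and Cldn4 at 3.59 and Marveld2 at 2.07 higher. Nectin1, an adhesion receptor, fell (-6.06), and Cdh3 (P-cadherin) rose (1.64). Junction calls were 5 higher with 12 lower without control replicate 1, and 5 with 10 without knockout replicate 1 or 3.

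**Figure D3:**
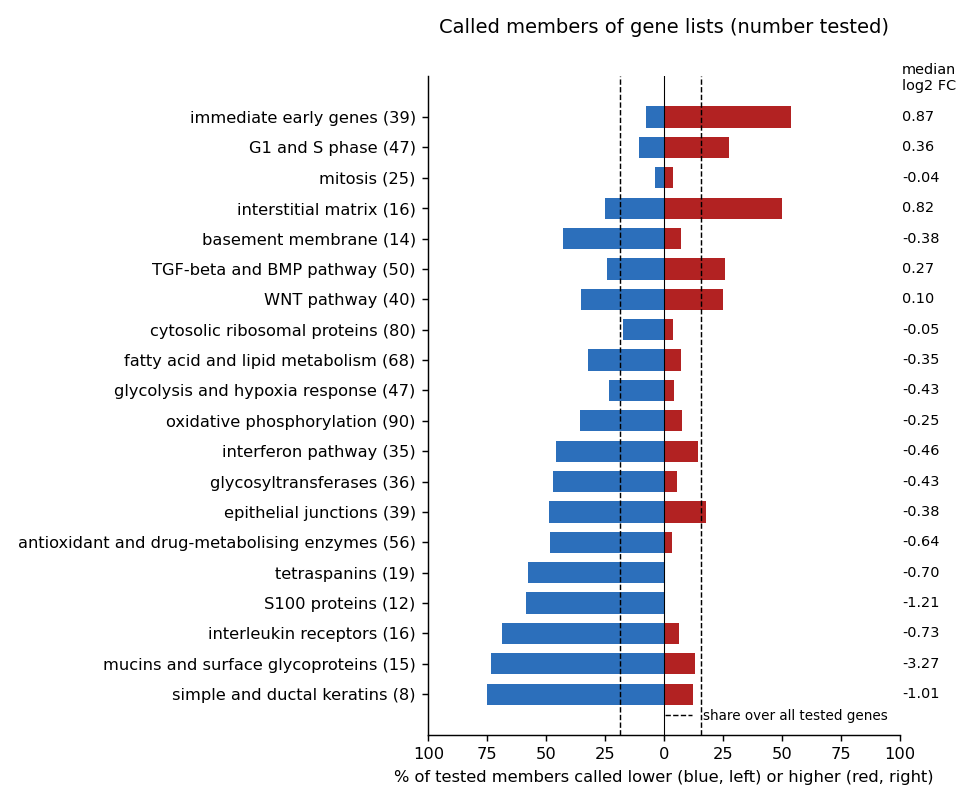
Percent of the tested members of 20 gene lists that were called lower (blue, to the left) or higher (red, to the right) in the knockout clone, with the number tested in brackets and the median log2 fold change (FC) at the right. Dashed lines mark the shares over all tested genes, 18.5% lower and 15.6% higher; immediate early genes reach furthest to the right and the keratin list (8 genes) furthest to the left.

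Enzymes of drug metabolism and antioxidant defence fell in large number. Of 56 tested, 27 fell (48.2% against 18.5% of all genes) and 2 rose. Among the 31 phase I and II enzymes, which oxidise and conjugate foreign compounds, 18 fell with a median log2 fold change of -1.17. Gsta4, a glutathione S-transferase that clears lipid peroxidation products, was at 9.56, 8.73 and 10.9 CPM in knockout libraries and 248, 91.2 and 449 CPM in control libraries (log2 fold change -4.73, SE 0.57, adjusted p 0.00126). Ephx1, the microsomal epoxide hydrolase, was at 4.0, 4.84 and 3.27 CPM in knockout libraries and 73.1, 28.8 and 81.1 CPM in control libraries (log2 fold change -3.90, SE 0.42, adjusted p 0.000847). Aldh3a1, an aldehyde dehydrogenase, fell from 108 ± 39.9 to 3.33 ± 0.568 CPM (-4.99). All 6 tested UDP-glucuronosyltransferases fell, with log2 fold changes from -4.77 to -2.45; the Ugt1a members share exons, so their separate values are uncertain. Cyp1a1, the classic aryl hydrocarbon receptor target, went the other way and rose (log2 fold change 3.38, SE 0.44, adjusted p 0.00154). Among 25 NRF2 targets and antioxidant genes 9 fell and 1 rose. Nqo1, a quinone reductase and NRF2 target, fell from 3.51 ± 2.22 to 0.27 ± 0.055 CPM (-3.65), and the NRF2 inhibitor Keap1 fell (-1.07). Other NRF2 targets were not called, among them Hmox1 (-0.03), Srxn1 (-0.09), Slc7a11 (-0.04) and Gclm (0.33). Hmox1, Slc7a11 and Gclm were called higher without control replicate 3, at log2 fold changes of 0.89, 1.27 and 0.51. The number called was 21 to 42 with 1 library left out.

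**Figure D4:**
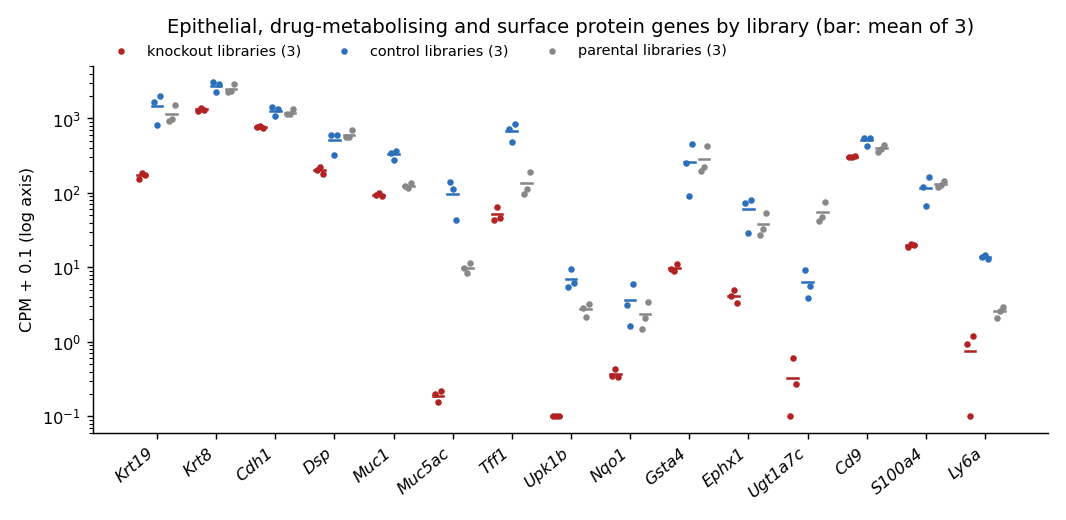
CPM plus 0.1 on a log axis for 15 genes that were called lower, from keratins and mucins to drug-metabolising enzymes and surface proteins; each point is 1 library of the knockout (red), control (blue) or parental (grey) group and bars are means of 3. All knockout points lie below the control points of the same gene, while parental points lie above, between or below the control points depending on the gene.

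In a list of palmitoylated membrane proteins and caveolar coat genes, tetraspanins and the coat held most of the genes that fell. Coat genes were listed whether or not their own proteins are palmitoylated. Of 36 tested members of the list 18 fell (50%) and 1 rose (2.78%; 12 and 0 without knockout replicate 1). Tetraspanins, which organise receptors and integrins in membrane domains, held 11 of 19 that fell, 0 that rose and a median log2 fold change of -0.70. Cd9 was at 302, 306 and 312 CPM in knockout libraries and 543, 430.4 and 547 CPM in control libraries (log2 fold change -0.70, SE 0.11, adjusted p 0.00363). Cd63 fell (-0.85), Cd81 (-0.80), Tspan8 (-1.27), Tspan15 (-1.33) and Tspan13 (-2.63), while Cd151 (0.04) and Tspan14 (0.07) were not called. After subtracting the median of each gene's chromosome the tetraspanin median was -0.57. Of 10 G protein alpha subunits 2 fell (20%, near the 18.5% of all genes), Gnao1 and the low-level Gnal (-1.47), and Gnaz rose (1.56), also at a low level. The Gnal call was lost without control replicate 1 or any 1 of the knockout replicates, and the Gnaz call without knockout replicate 1 or 2. Gnai2 (0.01), Gnai3 (-0.00), Gnaq (-0.20), Gna11 (-0.07) and Gna13 (-0.14) were not called, though Gnaq and Gna13 were called lower without control replicate 2 (-0.29 and -0.26). In the caveolar coat 5 of 7 fell, among them Cavin3 (-0.89) and Ehd2 (-0.49). Cav1, the caveolin that shapes caveolae, had a log2 fold change of -0.52 that was not called; it was called without control replicate 3 (-0.77) and was at -0.22 without control replicate 2. The calcium-binding S100 proteins held 7 of 12 that fell and 0 that rose, with S100a4 at 19.7 ± 0.902 against 118 ± 49.1 CPM (-2.55) and S100a6 down (-0.97). Of 11 annexins, which bind membranes in response to calcium, 6 fell and 0 rose (2 without knockout replicate 1, 3 without knockout replicate 3).

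Of 16 tested interleukin receptor genes and antagonists 11 fell (68.8%) and 1 rose (6.25%). The receptor Il1r1 fell from 48.9 ± 17.3 to 18.9 ± 1.85 CPM (-1.35), Il10rb fell (-1.0) and the antagonist Il1rn (-5.0), while Il17rd rose (2.15). The EGF receptor family is of interest as home of a ZDHHC20 substrate. Egfr was at 19.08, 22.9 and 17 CPM in knockout libraries and 16.9, 33.9 and 15.4 CPM in control libraries, with a log2 fold change of -0.14 (SE 0.30, adjusted p 0.746) that was not called. The related receptor genes Erbb2 and Erbb3 fell (-0.37 and -1.60). Both calls were lost without control replicate 1 or any 1 of the knockout replicates. That of Erbb2 was also lost without control replicate 3, with no filter and with the replicate number as a block. The ligands Areg and Tgfa rose (0.83 and 0.48), and Ereg (0.10) and Hbegf (0.08) were not called, though Hbegf was called higher without control replicate 2 (0.32). Among adaptors and regulators below the receptor Gab2 rose (1.28) and the ubiquitin ligase Cblb (1.24), while Gab1 fell (-2.49) and Cbl (-0.85). Over the 24 genes 6 rose and 6 fell (25% each, against 15.6% and 18.5% of all genes), or 4 and 3 without knockout replicate 1 or 3, 5 and 3 without control replicate 1 or knockout replicate 2, and 9 and 8 without control replicate 2. Of 36 glycosyltransferases, enzymes that build sugar chains, 17 fell (47.2%) and 2 rose (5.56%; 11 and 1 without knockout replicate 2, 10 and 1 without knockout replicate 3). The sialyltransferases St3gal4, St3gal5 and St6galnac4 fell (-1.43, -1.38 and -2.79), and the fucosyltransferase Fut4 fell (-1.78).

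Lipid handling genes fell more often than they rose. Of 68 tested, 22 fell (32.4%) and 5 rose (7.35%). The genes that fell were 6 of 10 in uptake, 3 of 7 in activation, 4 of 15 in synthesis, 4 of 20 in oxidation (20%, near the 18.5% of all genes) and 5 of 16 in storage and breakdown. Besides Lpl, the lysophospholipid transporter Mfsd2a fell (-5.12), as did the lipid storage regulator Pparg (-1.40). In oxidation Etfa and Etfb, the subunits of electron transfer flavoprotein, fell (-1.18 and -1.20). Enzymes of synthesis were mostly not called, among them Fasn (0.09), Scd1 (-0.94) and Scd2 (-0.51), though Scd1 and Scd2 were called lower without control replicate 2 (-1.30 and -0.85), and the lipid droplet protein Plin2 rose (0.67). Of 21 cholesterol synthesis genes 1 rose and 1 fell. Lipid calls without control replicate 2 were 6 higher and 41 lower; they were 2 and 14 without control replicate 1, 1 and 13 without knockout replicate 1, and 1 and 14 without knockout replicate 2 or 3.

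Hypoxia response genes had a median of -1.08 on the log2 scale over 20 tested members, of which 6 fell (30%) and 0 rose. Epas1 (HIF-2 alpha) fell from 4.44 ± 3.22 to 0.174 ± 0.103 CPM (-4.57), P4ha2, a collagen prolyl hydroxylase, fell (-1.77), Bhlhe40 (-1.19) and Egln3 (-2.12). Bnip3, a mitophagy receptor induced by hypoxia, was at 35, 22.5 and 41.7 CPM in knockout libraries and 114, 15.8 and 199 CPM in control libraries and was not called (-1.71), with control replicate 2 below every knockout library and both other control libraries above them; it was called without control replicate 2 (-2.24) and with no filter (-1.71), and was at -0.99 without control replicate 3. The list of glycolysis and hypoxia genes had 2 higher and 11 lower calls, but 2 and 34 without control replicate 2, and 1 and 6 without control replicate 1 or any knockout replicate. Of the 27 glycolytic enzymes and transporters 5 fell (18.5%, the share over all genes) and 2 rose (7.41%), with Pkm down (-0.76), Pdk3 up (1.90), and Gapdh (-0.46), Ldha (-0.36) and Slc2a1 (-0.38) not called. Without control replicate 2 the last 3 were called lower (-0.66, -0.56 and -0.55).

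Transcripts of the mitochondrial genome were lower in the knockout clone. Of 13 protein-coding genes 11 fell (84.6%) and 1 rose (7.69%), with a median log2 fold change of -1.18. Cytochrome oxidase subunit mt-Co1 was at 4985, 4526 and 3395 CPM in knockout libraries and 12015, 10436 and 10727 CPM in control libraries (log2 fold change -1.34, SE 0.15, adjusted p 0.00106), with parental libraries at 4236, 3446 and 3064 CPM, so the control clone was the high one. Cytochrome b, mt-Cytb, fell from 3608 ± 745 to 1369.9 ± 283 CPM (-1.38). Of the 77 nuclear genes of the respiratory chain, 11 of 37 in complex I fell (29.7%) and 2 rose, and 10 of 40 in complexes II to V fell (25%) and 4 rose. 4 of the larger drops, Sdhd (-1.22), Cox5a (-0.80), Atp5l (-1.27) and Ndufb4 (-1.07), belong to genes on chromosomes 9 and 16, whose medians are given below. Drops on other chromosomes were not tallied. After subtracting the median of each gene's chromosome, the complex I median was -0.28 (-0.25 before). That of complexes II to V was -0.10 (-0.09 before). Over all 90 genes 32 fell and 7 rose; the counts were 20 and 3 without control replicate 1, 17 and 2 without knockout replicate 1, 20 and 0 without knockout replicate 2, and 20 and 1 without knockout replicate 3.

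Interferon genes fell more often than they rose at the low basal level of untreated cells. Of 35 tested members of the pathway 16 fell (45.7%) and 5 rose (14.3%, near the 15.6% of all genes), or 10 and 2 without knockout replicate 1. Among interferon-stimulated genes Bst2 (tetherin), which holds viruses at the cell surface, was at 6.49, 6.56 and 7.88 CPM in knockout libraries and 12.7, 12.6 and 12.2 CPM in control libraries (log2 fold change -0.82, SE 0.14, adjusted p 0.00423). Ifitm2, an antiviral membrane protein that is itself palmitoylated, fell from 59.1 ± 6.91 to 21.9 ± 0.637 CPM (-1.41). Uba7, the activating enzyme for ISG15, fell (-2.56) and Lgals3bp (-1.92), whereas Ifit2 rose (1.13). In signalling, the receptor subunit Ifngr1 fell (-0.64), the kinase Tyk2 (-1.54) and the inhibitor Socs3 (-0.90), the DNA sensor Cgas rose (1.41), and Stat2 (-0.53) and Irf1 (-0.12) were not called, though Stat2 was called lower without control replicate 2 (-0.74). Of 6 class I-like H2 genes 4 fell (2 without knockout replicate 1 or 3), and reads can be divided among these similar genes.

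Promoters of interferon genes are shown because their shared element is well defined. The core of the interferon-stimulated response element, GAAA followed after any 2 bases by GAAA, lay within 250 bases before the start on either strand in 8 of 33 list members with a promoter (24.2% against 2.98% of all promoters and 2.38% of those of tested genes). Of these 8, 5 fell and 1 rose, so a match went with either direction. The Bst2 window is on chromosome 8 from 71537562 to 71537627 and the Ifitm2 window on chromosome 7 from 140955973 to 140956032, both in GRCm38.p6 on the minus strand, in the direction of the gene with matches in capitals; the Bst2 stretch holds 2 overlapping matches.
Bst2: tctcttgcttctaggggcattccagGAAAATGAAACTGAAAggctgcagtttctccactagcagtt
Ifitm2: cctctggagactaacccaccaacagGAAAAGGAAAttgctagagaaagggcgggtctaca
Both genes fell, while Irgm1, whose promoter also holds a match, rose (0.54), a call lost without knockout replicate 1 or 3.

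Matrix genes moved in both directions. Among 16 tested genes of interstitial matrix 8 rose (50%) and 4 fell (25%), and among 14 of basement membrane 1 rose (7.14%) and 6 fell (42.9%); the difference between the types was not tested. Fn1 (fibronectin) was at 848, 748 and 820.2 CPM in knockout libraries and 152, 156 and 136 CPM in control libraries (log2 fold change 2.46, SE 0.10, adjusted p 3.76e-05). Vcan, a proteoglycan that binds hyaluronan, rose from 0.921 ± 0.196 to 7.49 ± 0.527 CPM (3.05), and the fibrillar collagen genes Col11a1 and Col5a1 rose (3.19 and 0.92). Col6a1 and Col6a2 fell (-1.44 and -2.50), and Sparc fell (-1.09). In basement membrane the laminin genes Lamb2, Lamb3 and Lama5 fell (-1.25, -0.87 and -0.61), while Lamb1 rose (0.69). The Lama5 call was lost without any 1 of the knockout replicates. Of 12 tested hyaluronan genes 3 rose (25%) and 1 fell (8.33%), and of 4 in breakdown 1 rose and 1 fell. Beside the rise of Has2, Cemip, a hyaluronan-degrading protein, fell from 36.2 ± 15.6 to 0.843 ± 0.0317 CPM (-5.39). The receptor Cd44 had a log2 fold change of 0.02 that was not called.

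WNT and TGF-beta pathway genes moved in both directions. Of 40 WNT genes 10 rose (25%, against 15.6% of all genes) and 14 fell (35%, against 18.5%). Among ligands Wnt7b rose as above, Wnt4 fell (-3.01), and 16 of 19 listed ligands did not pass the filter. Among receptors Lgr6 rose (2.19) and Lgr4, Fzd1 and Fzd5 fell (-1.15, -1.02 and -1.0). Porcn, which attaches the palmitoleate that WNT ligands need, fell (-1.32). The transcription factor Tcf7 rose (1.74), while Axin2, the usual feedback target, was at 5.71, 4.5 and 3.85 CPM in knockout libraries and 1.09, 1.6 and 4.46 CPM in control libraries and was not called (1.01), with a call at 1.82 without control replicate 3 and a value of 0.63 without control replicate 1. WNT calls were 5 higher and 10 lower without control replicate 1, 4 and 8 without knockout replicate 1, 5 and 9 without knockout replicate 2, and 4 and 9 without knockout replicate 3. Of 50 TGF-beta and BMP genes 13 rose (26%) and 12 fell (24%); the counts were 8 and 8 without knockout replicate 1 or 2, 8 and 7 without knockout replicate 3, and 22 and 15 without control replicate 2. Among ligands Bmp6 rose (3.03), Bmp1, a procollagen protease, (1.42) and Tgfb1 (0.66), beside the loss of Bmp2. Tgfbr2 fell (-0.49), Bmpr2 rose (0.52), Smad3 fell (-0.79), Smad5 rose (0.78) and the inhibitor Smad6 fell (-2.0). Among targets Id1 (-0.83) and Id3 (0.14) were not called, though Id1 was called lower without control replicate 2 (-1.12) and Id3 higher without control replicate 3 (0.60).

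Cell cycle genes were counted by phase. Of 47 G1 and S phase genes 13 rose (27.7%, against 15.6% of all genes) and 5 fell (10.6%, against 18.5%; median log2 fold change 0.36), while of 25 mitosis genes 1 rose and 1 fell (4% each; -0.04). Mcm4, a subunit of the replicative helicase, was at 304, 309.8 and 299 CPM in knockout libraries and 179, 216 and 148 CPM in control libraries (log2 fold change 0.77, SE 0.14, adjusted p 0.00523). The polymerase clamp Pcna rose (0.75), Ccne1 (cyclin E1) (0.77) and Pola1 (0.88), whereas Rrm2 fell (-0.83) and Ccnd1 (-0.37). The Ccnd1 call was lost without control replicate 1, without any 1 of the knockout replicates and with the replicate number as a block. Mki67 (0.42), Cdk1 (-0.06) and Plk1 (-0.11) were not called, though without control replicate 3 Cdk1 and Plk1 were called lower (-0.34 and -0.41). The difference between phases was not tested. The counts moved with single libraries: over the 72 genes 14 rose and 6 fell, but 31 and 5 without control replicate 2, 18 and 19 without control replicate 3, 8 and 3, 7 and 2, and 9 and 3 without knockout replicates 1, 2 and 3.

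E2f6, a repressor of germline genes in somatic cells, was nearly lost, at 0.0488, 0.0556 and 0 CPM in knockout libraries and 26.1, 31.9 and 24.1 CPM in control libraries, with 2 counts in the knockout clone and a ratio of 754 (95% interval 208 to 6234) of control to knockout. Its partner Mga rose (0.51), and L3mbtl2 (0.12) and Max (0.06) were not called. Of 41 listed germline genes 3 passed the filter and all 3 rose: Syce2, a synaptonemal complex gene, was at 50.2, 53.7 and 49.3 CPM in knockout libraries and 18.8, 13.1 and 13.9 CPM in control libraries (log2 fold change 1.76, SE 0.16, adjusted p 0.00048), Zcwpw1, a reader of meiotic histone marks, rose (2.06), and Tdrkh (0.31), a call lost under 6 alternatives. Zcwpw1 overlaps exons of Pilra. The Syce2 promoter is shown for the E2F site TTCCCGC. The site lay before 2 of the 22 genes of this list with a promoter (9.09%). It lay in 3.82% of all promoters and 7.10% of those of tested genes, so the list share was near the background. The window is on chromosome 8 from 84872199 to 84872255 (GRCm38.p6, plus strand), and the capitals mark the match, which reads on the opposite strand.
Syce2: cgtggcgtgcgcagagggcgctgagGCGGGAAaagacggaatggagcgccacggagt
The parental means were 24.8 CPM for E2f6 and 26.1 CPM for Syce2, beside 27.4 and 15.3 CPM in the control clone.

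Of 80 cytosolic ribosomal protein genes 14 fell (17.5%, near the 18.5% of all genes) and 3 rose (3.75%), with a median log2 fold change of -0.05 (7 and 1 without knockout replicate 1 or 2, 9 and 0 without knockout replicate 3, 16 and 9 without control replicate 3, 20 and 4 without control replicate 2). Of 37 cholesterol genes 5 rose (13.5%) and 4 fell (10.8%; 5 and 15 without control replicate 2). Of 16 semaphorins, guidance cues of axons and vessels, 7 fell (43.8%) and 3 rose (18.8%, near the 15.6% of all genes).

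The share of called genes differed by chromosome. On chromosome 9, 332 of 712 tested genes fell (46.6%) and 52 rose, with a median log2 fold change of -0.47. Chromosome 16 had 144 of 392 lower (36.7%, median -0.31) and chromosome 12 had 119 of 456 lower (26.1%, median -0.22). In the other direction, 184 of 517 genes on chromosome 13 rose (35.6%, median 0.35), as did 138 of 448 on chromosome 19 (30.8%, median 0.22) and 115 of 427 on chromosome 14 (26.9%, median 0.22). Chromosome 17 was close to chromosome 14, with 180 of 673 higher (26.7%, median 0.16). Chromosome 6 was close to chromosome 12, with 155 of 613 lower (25.3%, median -0.13). Of the genes named in the text, 18 that fell and 4 that rose lie on chromosome 9, among them Panx1, Keap1 and Gsta4 lower and Cd109 and Mmp10 higher. On chromosome 16 lie 5 that fell and 3 that rose, and on chromosome 12 lie 5 that fell, among them E2f6 and Cdca7l, and 2 that rose. Genes were named by rules that favour large changes, so these counts do not measure how called genes gather on a chromosome. DNA copy number was not measured.

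**Figure D5:**
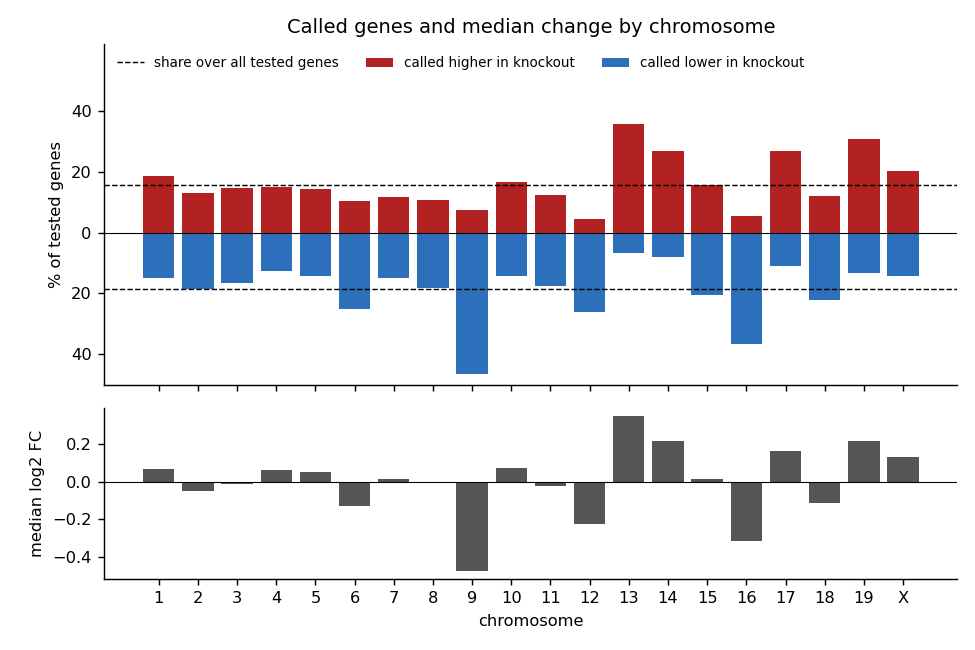
Upper panel: percent of the tested genes of each chromosome called higher (red, up) or lower (blue, down) in the knockout clone, with dashed lines at the shares over all tested genes; lower panel: median log2 fold change (FC) of the same genes. Chromosomes 9, 16 and 12 have the lowest medians and chromosome 13 the highest.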

How the data were processed

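RNA-seq libraries of 3 knockout clone, 3 control clone and 3 parental line samples were deposited as 1 gene table. The authors' deposited values are RSEM estimated counts per Ensembl gene, unscaled and already whole numbers, so no rounding was needed. The submitters' processing notes name STAR 2.5.2, RSEM 1.3.0, DESeq2 1.10.1 and GRCm38. The annotation release and strand setting are not given in the sources used here, so reads of overlapping or antisense genes may be divided between them; this touches 69 of the 215 genes named in the report. RSEM divides multiply mapped reads by estimate, which affects near-identical copies. Identifiers were matched to GENCODE M21 (54809 of 54838), which gave symbols and coordinates.

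Library totals, 17237512 to 23192701 in the compared libraries, allow a floor of 3 counts over a group where none was seen. The replicates are numbered in the labels, with nothing that says more than separate samples of a clone. Genes passing filterByExpr (minimum count 10, minimum total 15) were scaled by TMM and tested with edgeR 4.0.16 (glmQLFit and glmQLFTest, group only, 6 libraries) in R 4.3.3, with Benjamini-Hochberg adjustment over all 12749 genes. CPM levels use TMM factors over all 9 libraries. Intervals for 1 to 3 counts are exact at 95% and cover counting error only. The fit was tested on simulated data. Alternatives were DESeq2 1.42.0 size factors or its Wald test, total counts, limma 3.58.1 voom, no filter, a mean of at least 5 CPM, all 9 libraries, an adjusted p under 0.01, the replicate number as a block, chromosome medians subtracted, and each library left out.

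Named genes were Zdhhc20, the 12 highest and 12 lowest called genes that changed by 1 or more on the log2 scale, with a mean of at least 5 CPM in the higher clone and no overlap between the libraries, up to 4 called members of each list per direction with the largest changes, and members named for their role. The lists, their members and the promoter motifs were chosen with earlier results of these data known. No list was tested as a set. Promoters and their coordinates are from RefSeq (GRCm38.p6). Some genes are not reported here.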

Additional observations from a re-analysis of the deposited data

How the results depend on the processing

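Against 4348 genes called (1986 higher, 2362 lower), an adjusted p under 0.01 gave 2164. With 1 library left out the number called was 2326 to 6222, with 957 to 2878 higher and 1369 to 3344 lower. Called genes that changed by 1 or more on the log2 scale numbered 1580, with 1263 to 2052 after dropping 1 library and 814 under the 5 CPM minimum. Scaling by DESeq2 size factors called 4359 and total counts 4391, no filter 4653, the 5 CPM minimum 3530, the DESeq2 Wald test 4925, limma voom 4397 and a fit of all 9 libraries 5643. Zdhhc20 stayed called in each alternative, at log2 fold changes from -1.68 to -1.42. With the replicate number as a block 3837 genes were called (1768 higher, 2069 lower, 1528 of size at least 1) and Zdhhc20 was at -1.50. Same-numbered libraries of the clones had deviations correlated at -0.03, 0.09 and 0.05. With 3 libraries per clone, these values cannot decide whether the numbers pair the samples. Only 2 named genes changed direction with a call, Hmox1 at 0.89 and Slc7a11 at 1.27 without control replicate 3 (-0.44 and -0.48 without control replicate 2); the cause was not tested. Of 2956 values of the named genes under the alternatives, 59 lost the call, 47 of them with a library left out, and 29 gained one. The block ended the calls of Ccnd1 (-0.37), Cd68 (-1.03), Erbb2 (-0.36) and Tdrkh (0.31), no filter those of Cd68, Erbb2, Gnaz and Tdrkh, and limma voom those of Cd68 and Gadd45g. Among genes not called, no filter gave calls for Bnip3, Id1 and Scd1, the DESeq2 Wald test for Id1 and Scd1, and the fit of all 9 libraries for Gapdh, Junb and Slc2a1.

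The libraries hold enough counts for genes above a few CPM, but 11209 counted genes were not tested, and for genes near 0 in 1 clone only bounds or wide intervals are given. With 1 clone per genotype, neither the depth nor the number of libraries separates the edit from the clone.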
